A study of Homo sapiens with 12 samples.

Results

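The 42 genes described here encode the proteins that hold RNA polymerase II shortly after initiation, release it into the gene body, accompany it along the gene and end transcription. They were taken by symbol from a deposited table of 28576 genes, and all 42 had at least 0.5 CPM (reads per 1000000 reads of a library) in at least 3 of the 12 libraries, the limit for testing, which 18674 genes met. Poly(A) RNA had been sequenced from SHEP, a human neuroblastoma cell line. Every library comes from cells with MYCN-ER, a fusion of MYCN to an oestrogen receptor domain that 4-hydroxytamoxifen (OHT) switches on, and with shTCEAL1, a hairpin against TCEAL1 that doxycycline (Dox) induces. The 4 groups hold 3 libraries each. OHT_Dox cells received 200 nM OHT and 1 µg/ml Dox, OHT cells received 200 nM OHT alone, Dox cells received 1 µg/ml Dox alone, and Ctrl cells received neither compound. No library lacks the MYCN-ER fusion or the hairpin, so what OHT or Dox do by themselves cannot be told apart from what the fusion or the hairpin do. The labels give no treatment times, and nothing in them ties the replicates to different cultures, so p-values measure only the spread between these libraries.

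After initiation, RNA polymerase II commonly stops a short way into the gene, held by the negative elongation factor NELF and by DSIF, a dimer of SPT4 and SPT5. The kinase P-TEFb, made of CDK9 and a T cyclin, phosphorylates NELF, DSIF and the polymerase tail and lets elongation begin. P-TEFb is kept inactive in a particle built on 7SK RNA with HEXIM1, LARP7 and MEPCE, and is brought to genes by, among others, the super elongation complex, in which AFF1 or AFF4 is the scaffold. The PAF1 complex, SPT6, IWS1, the histone chaperone FACT, TFIIF and elongin travel with or stimulate the moving polymerase, CDK12 and CDK13 with cyclin K phosphorylate its tail further along the gene, and XRN2, PCF11 and Integrator end transcription. MYC proteins bind DNA with MAX and are described as recruiting elongation factors, and TCEAL1 belongs to a protein family that resembles the elongation factor TFIIS.

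The libraries held 44466458 to 57694970 reads, recovered from the CPM values. Among the members, read numbers were lowest for MLLT3, with 54 to 120 reads a library. TCEAL1, the target of the hairpin, had 2.58, 2.50 and 1.73 CPM in OHT_Dox, against 8.23, 9.75 and 8.99 CPM in OHT. Without OHT it had 2.62, 2.54 and 2.74 CPM in Dox, against 9.71, 9.11 and 10.7 CPM in Ctrl, so every library matched its Dox label. The mean CPM of MYCN was 425 ± 47 for OHT_Dox, 536 ± 94 for OHT, 538 ± 25 for Dox and 496 ± 69 for Ctrl (SD, n = 3 each), and it was called lower in OHT_Dox than in Dox (log2 change -0.34 ± 0.10 SE, adjusted p = 0.0191). Of the adrenergic neuroblastoma markers, HAND2 (47.6 to 64.1 CPM), GATA3 (7.30 to 10.1) and ISL1 (8.74 to 12.4) were present, while PHOX2A and DBH reached at most 0.312 and 0.581 CPM. The mesenchymal markers VIM (2223 to 3083 CPM), FN1 (429 to 741) and CD44 (302 to 380) were high. PRRX1 (62.3 to 114 CPM), TWIST1 (61.0 to 73.7) and YAP1 (84.0 to 112) were present, while the mesenchymal marker SNAI2 had only 2.97 to 10.1 CPM. EPCAM, CDH1, PTPRC and CDH5 stayed at or below 1.25, 0.922, 0.413 and 0.120 CPM. In OHT_Dox replicates 2 and 3 the deviation of a gene from its group mean followed its GC content in opposite directions (Spearman correlation across 18673 genes -0.501 in replicate 2 and 0.528 in replicate 3). The deviations within a group sum to 0, so opposite signs there are partly given in advance. In all 4 groups the correlation was above 0 in replicate 3 (0.117 in OHT, 0.291 in Dox and 0.287 in Ctrl). It was below 0 in replicates 1 and 2 of every group (-0.007 to -0.501).

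MYC proteins with MAX prefer the letters CACGTG, which read the same on both strands. The 250 bases upstream of the annotated start are shown for 3 members, from RefSeq on GRCh38.p14, a later build than the one named in the submitters' notes. MLLT1 had the largest change with OHT and holds the motif at its far end. AFF4 holds it 54 bases before the start and changed with Dox. HEXIM1 fell with OHT and has no CACGTG in this window. They lie at chr19:6279976-6280225 (minus strand), chr5:132963635-132963884 (minus strand) and chr17:45148225-45148474 (plus strand), are printed in the direction of the gene, and have CACGTG in capitals.
MLLT1: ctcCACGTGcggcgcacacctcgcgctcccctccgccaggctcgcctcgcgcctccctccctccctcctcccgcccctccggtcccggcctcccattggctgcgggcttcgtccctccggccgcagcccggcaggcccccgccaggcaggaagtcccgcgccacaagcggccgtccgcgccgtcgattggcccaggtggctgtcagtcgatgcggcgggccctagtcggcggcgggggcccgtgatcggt
AFF4: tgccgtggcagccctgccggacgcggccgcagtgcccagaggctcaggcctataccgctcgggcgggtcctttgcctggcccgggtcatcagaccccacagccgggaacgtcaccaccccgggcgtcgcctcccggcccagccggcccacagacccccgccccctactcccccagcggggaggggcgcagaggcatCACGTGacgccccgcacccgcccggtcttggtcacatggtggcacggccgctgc
HEXIM1: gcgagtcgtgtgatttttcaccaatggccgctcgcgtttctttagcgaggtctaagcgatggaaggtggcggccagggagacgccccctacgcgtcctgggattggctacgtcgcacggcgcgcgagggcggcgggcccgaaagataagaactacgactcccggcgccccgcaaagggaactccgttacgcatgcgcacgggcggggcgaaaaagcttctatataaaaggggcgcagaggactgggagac

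Of the 39 members with a RefSeq promoter, 7 (17.9%) hold CACGTG in the window of 250 bases before and 50 after the start, namely AFF4, CCNT1, INTS6, MEPCE, MLLT1, SUPT16H and XRN2. The motif is found in 12.2% of the 11394 tested genes with a promoter and in 7.26% of all 35116 promoters. The variant CACGCG, searched on both strands as CACGCG or CGCGTG, is found in ELL3, ELOB, INTS6, LARP7, MEPCE, NELFCD and SUPT16H, against 21.6% of tested genes and 11.4% of all promoters. Of the 7 members with CACGTG, MLLT1 rose with OHT, MEPCE fell with OHT without Dox, and AFF4 and CCNT1 fell with OHT in the presence of Dox, while INTS6, SUPT16H and XRN2 passed the test in no comparison. A match to these letters describes the sequence and shows no binding.

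Per kilobase of exon, the members were expressed at a median of 14.9 CPM over the 12 libraries, against 4.88 CPM for all genes tested. ELOB (74.1 CPM per kilobase), SUPT4H1 (69.4), SSRP1 (55.7), SUPT16H (49.9) and XRN2 (45.5) were the most abundant, and MLLT3 (0.182), INTS6 (1.04) and ELL3 (1.26) the least. Within pairs or small families of paralogues, 1 gene supplied most of the message per length. MLLT1, which encodes the YEATS-domain protein ENL, made up 98.8% ± 0.4 of the summed MLLT1 and MLLT3 level in OHT_Dox, 99.1% ± 0.3 in OHT, 98.4% ± 0.4 in Dox and 98.6% ± 0.2 in Ctrl (SD, n = 3 each). ELL2 made up 74.8% to 78.6% of the ELL family level in the 4 group means, AFF4 72.8% to 76.5% of AFF1 and AFF4, CCNT1 71.2% to 74.7% of the T cyclins, and CDK12 70.9% to 72.1% of CDK12 and CDK13. Exon length here counts all annotated exon bases of a gene. They number 25093 for CDK13, 12773 for CDK12 and 25509 for INTS6, against 10135, 8336 and 15428 in the longest transcripts. Ranks and shares per length depend on that choice. In NELF, NELFB supplied 44.7% to 46.9% of the summed level and NELFA 4.36% to 5.68%. Members of the super elongation complex ran from 0.182 for MLLT3 to 15.0 CPM per kilobase for ELL2.

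**Figure D1:**
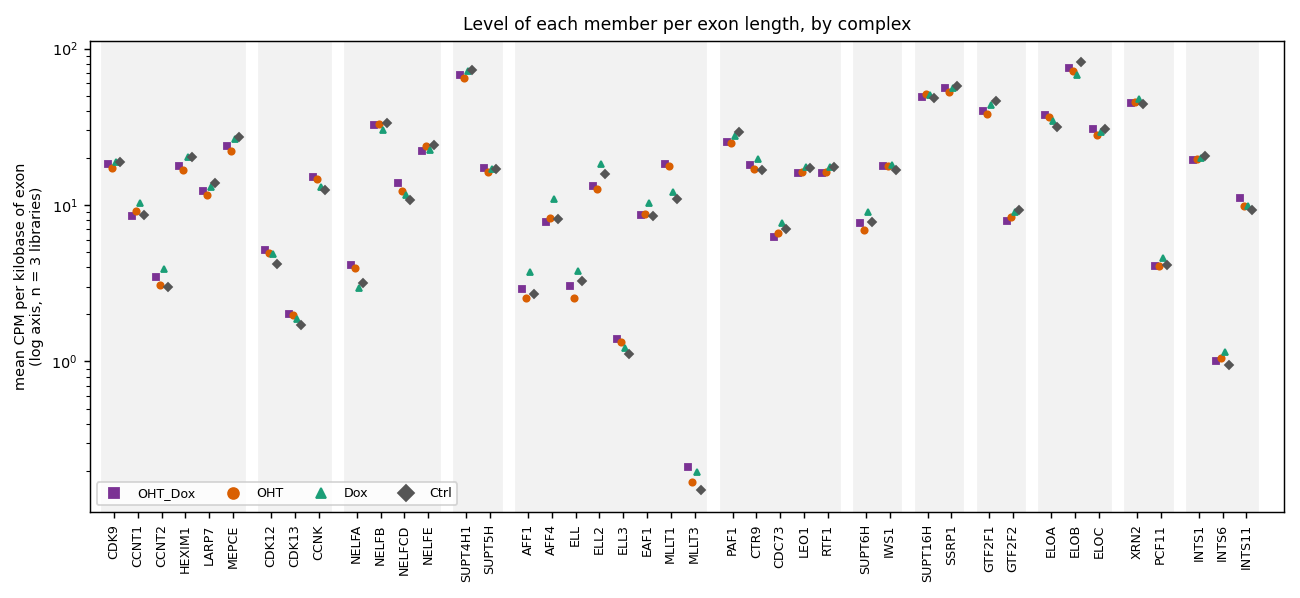
Mean level of each of the 42 members per kilobase of exon (log axis, CPM per kilobase), with 1 symbol for each of the 4 groups (n = 3 libraries each) and the members ordered by complex. The 4 symbols of a gene lie close together compared with the distance between genes, which runs from MLLT3 at 0.182 to ELOB at 74.1 over all libraries.

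OHT changed members of most of these complexes, by small amounts, and 8 genes passed the test in the same direction with and without Dox. A gene was called at an adjusted p below 0.05 (limma on log2(CPM + 0.5), adjusted over all 18674 genes tested), and changes are on that log2 scale. In OHT_Dox against Dox, 5 members were higher and 10 lower, or 35.7%, where 26.0% of all genes tested were called (11.5% higher and 14.5% lower). In OHT against Ctrl, 5 members were higher and 8 lower, or 31.0%, where 21.4% of all genes were called (12.6% higher and 8.79% lower). The median change of the 42 members was -0.07 in OHT_Dox against Dox and -0.02 in OHT against Ctrl, beside -0.03 and -0.01 for all genes tested. MLLT1, NELFA, NELFCD, CCNK and ELOA were higher and HEXIM1, ELL and ELL2 were lower in both comparisons. The comparisons share no library, but their tests share 1 spread per gene, fitted over all 12 libraries, and so are not independent. These 8 genes are 53.3% of the members called with Dox and 61.5% of those called without it, where the genes called in the same direction in both are 49.9% and 60.7% of all called genes. No member was called in opposite directions, and MLLT1 was the only member whose change exceeded 0.5 in size in either of them. All 3 libraries lay beyond all 3 of the other group for 8 members higher and 17 lower in OHT_Dox against Dox (17.4% and 23.9% of all genes) and for 6 higher and 9 lower in OHT against Ctrl (17.5% and 16.7%). CPM values are shares of the sequenced RNA, so a change in the RNA content of the cells or in the make-up of a culture cannot be told apart from a change of a gene in each cell. Rescaling the libraries with TMM gave 2553 higher and 2220 lower genes in OHT_Dox against Dox over all genes, where 2153 were higher and 2709 lower without it, and removing GC and length trends gave 2442 and 2533 in OHT against Ctrl, where 2357 and 1641 were called. Leaving out Dox replicate 1 and OHT_Dox replicate 3 together left 2 members higher and 5 lower in OHT_Dox against Dox, with CCNT1, CCNK, NELFCD, AFF1, CDC73, SUPT6H, GTF2F2 and ELOA no longer called (adjusted p = 0.0735 to 0.259). Leaving out Dox replicate 1 alone left 3 higher and Dox replicate 2 alone 5 lower, and in OHT against Ctrl 2 were higher without OHT replicate 3 and 3 higher and 5 lower without Ctrl replicate 2. With no filter on low values, HEXIM1 and ELOA with Dox and LARP7 without it just missed the threshold (adjusted p = 0.0502 to 0.0530).

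**Figure D2:**
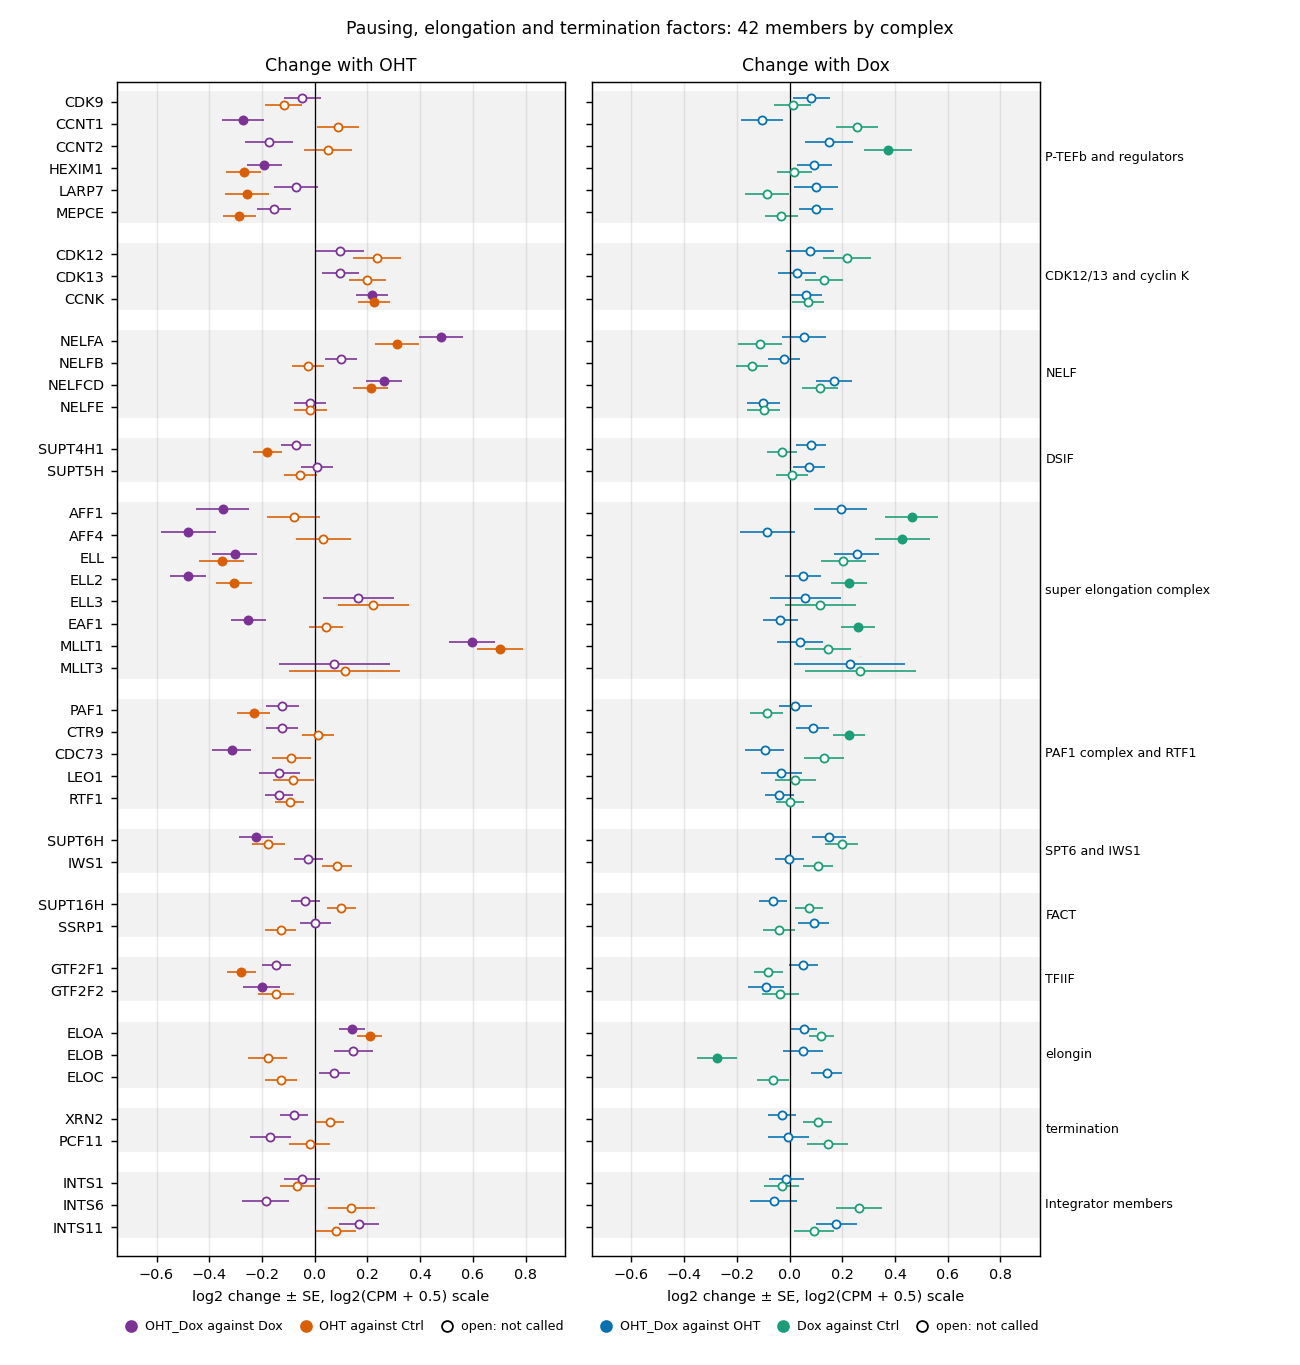
Log2 change of each of the 42 members, by complex, with OHT (left) and with Dox (right), as points with bars of 1 SE. Filled points passed the test and open points did not. MLLT1 stands furthest right in both OHT comparisons, while AFF1, AFF4, CCNT2 and EAF1 are filled on the right side in Dox against Ctrl.

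Of the 6 genes for factors that hold the paused polymerase, 2 NELF subunits rose with OHT and 1 DSIF subunit fell in OHT against Ctrl. NELF had 2 of 4 genes called in each comparison, and DSIF 0 of 2 with Dox and 1 of 2 without it. Of all genes tested, 26.0% were called with Dox and 21.4% without it. NELFA, the subunit that binds the polymerase, had 22.8, 23.0 and 27.9 CPM in OHT_Dox, against 17.3, 16.9 and 18.0 CPM in Dox. It had 22.2, 23.6 and 24.8 CPM in OHT, against 18.6, 18.2 and 19.8 CPM in Ctrl. All OHT-treated libraries lay above all others, and NELFA rose by 0.48 ± 0.08 (SE, adjusted p = 0.000289) with Dox and by 0.31 ± 0.08 (adjusted p = 0.0115) without it. NELFCD, which encodes the NELF-C or NELF-D subunit, had 85.1, 84.9 and 93.1 CPM in OHT_Dox, against 70.0, 73.4 and 75.4 CPM in Dox. It had 77.2, 79.0 and 77.7 CPM in OHT, against 70.3, 59.7 and 72.4 CPM in Ctrl. Again neither comparison overlapped, with rises of 0.26 ± 0.07 (adjusted p = 0.00676) and 0.21 ± 0.07 (adjusted p = 0.0307). The other NELF subunits did not pass the test, with changes of 0.10 and -0.03 for NELFB and of -0.02 and -0.02 for the RNA-binding subunit NELFE in OHT_Dox against Dox and OHT against Ctrl. SUPT4H1, which encodes SPT4, had 129, 141 and 132 CPM in OHT, against 142, 159.9 and 155 CPM in Ctrl, and fell by 0.18 ± 0.06 (adjusted p = 0.0292), while its change in OHT_Dox against Dox was -0.07 (adjusted p = 0.411). Its libraries did not overlap, but the gap between 141 and 142 CPM is narrow. SUPT5H, for SPT5, changed by 0.01 with Dox and by -0.05 without it and passed neither test. TSPOAP1-AS1, a gene on the opposite strand from SUPT4H1, had 1.001 to 1.005 times its CPM in every library, so their reads cannot be told apart. In OHT against Ctrl the NELFA call was lost without OHT replicate 3 (0.27, adjusted p = 0.0614), the NELFCD call without OHT replicate 1, 2 or 3 (0.20 to 0.22, 0.0631 to 0.0762) or Ctrl replicate 2 (0.13, 0.178), and the SUPT4H1 call without OHT replicate 1 or 3 or Ctrl replicate 2 or 3 (-0.14 to -0.17, 0.0883 to 0.121).

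CDK9, the kinase that releases the polymerase, passed no test with OHT, while the 3 genes for proteins of the particle that restrains it fell in OHT against Ctrl, and HEXIM1 fell with Dox as well. Of the 6 genes for P-TEFb and its regulators, 2 were called with Dox and 3 without it, where 26.0% and 21.4% of all genes were. CDK9 ranged from 50.2 to 61.8 CPM over the 12 libraries, with changes of -0.05 in OHT_Dox against Dox and -0.12 in OHT against Ctrl (adjusted p = 0.684 and 0.258). HEXIM1, the inhibitor that blocks CDK9 within the 7SK particle, had 67.3, 57.2 and 68.8 CPM in OHT_Dox, against 70.2, 73.7 and 76.5 CPM in Dox. It had 59.6, 59.6 and 61.2 CPM in OHT, against 73.6, 73.9 and 70.2 CPM in Ctrl. The groups did not overlap, and HEXIM1 fell by 0.27 ± 0.07 (adjusted p = 0.00618) without Dox and by 0.19 ± 0.07 (adjusted p = 0.0381) with it. MEPCE, the enzyme that caps 7SK RNA, had 70.1, 76.4 and 82.1 CPM in OHT, against 88.1, 93.4 and 97.1 CPM in Ctrl, a fall of 0.29 ± 0.06 (adjusted p = 0.00292) with no overlap. It had 79.8, 78.6 and 86.5 CPM in OHT_Dox, against 88.1, 92.9 and 91.5 CPM in Dox, and did not pass the test there (-0.15, adjusted p = 0.0844), but was called after removal of GC and length trends (-0.25, 0.00265) and without OHT_Dox replicate 3 (-0.20, 0.0487). LARP7, which binds the end of 7SK RNA, had 44.2, 54.4 and 43.2 CPM in OHT, against 52.4, 61.0 and 55.8 CPM in Ctrl. These libraries overlapped, and LARP7 fell by 0.26 ± 0.08 (adjusted p = 0.0335), with a change of -0.07 (adjusted p = 0.597) in OHT_Dox against Dox. The T cyclins showed no fall in OHT against Ctrl, where CCNT1 changed by 0.09 and CCNT2 by 0.05. CCNT1 had 64.4, 67.8 and 57.0 CPM in OHT_Dox, against 73.2, 78.4 and 76.7 CPM in Dox, a fall of 0.27 ± 0.08 (adjusted p = 0.0148) with no overlap, and CCNT2 changed by -0.17 (adjusted p = 0.184), called without OHT_Dox replicate 2 (-0.28, 0.0305). The HEXIM1 call in OHT_Dox against Dox was lost without OHT_Dox replicate 2 (-0.11, adjusted p = 0.209), OHT replicate 3 (-0.19, 0.0502) or Dox replicate 2 or 3 (-0.19, 0.102 and -0.16, 0.138) and with TMM, edgeR and DESeq2 (-0.15 to -0.16, 0.0817 to 0.112), LARP7 without OHT replicate 1 or 3 or Ctrl replicate 2 or 3 (-0.20 to -0.26, 0.0707 to 0.164). CCNT1 was lost without OHT_Dox replicate 3 (-0.20, adjusted p = 0.0924) or Dox replicate 2 (-0.25, 0.0645) and after removal of GC and length trends (-0.15, 0.0582).

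In the super elongation complex, MLLT1 rose with OHT, ELL and ELL2 fell with and without Dox, and AFF1, AFF4 and EAF1 were lower in OHT_Dox than in Dox. With Dox, 6 of the 8 members were called (1 higher and 5 lower), where 26.0% of all genes tested were called. Without Dox 3 of the 8 were called (1 higher and 2 lower), where 21.4% of all genes were. Of those lower with Dox, AFF1, AFF4, ELL2 and EAF1 were also called higher in Dox against Ctrl, a comparison that shares the 3 Dox libraries. MLLT1, whose product reads acylated histones and binds the AFF scaffold, had 85.9, 80.7 and 93.6 CPM in OHT_Dox, against 54.3, 55.8 and 61.3 CPM in Dox. It had 91.7, 75.2 and 86.5 CPM in OHT, against 58.8, 45.5 and 51.1 CPM in Ctrl. All 6 OHT-treated libraries lay above the other 6, at 1.51-fold with Dox (0.60 ± 0.09, adjusted p = 4.82e-05) and 1.63-fold without it (0.70 ± 0.09, adjusted p = 8.04e-06). Its paralogue MLLT3, which encodes AF9, had 0.971 to 2.27 CPM over all libraries and passed no test, with changes of 0.07 and 0.11.

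ELL2, an elongation factor that suppresses pausing along the gene, had 98.2, 106 and 86.8 CPM in OHT_Dox, against 140.4, 129 and 136 CPM in Dox. It had 92.7, 91.8 and 95.1 CPM in OHT, against 125, 114 and 108 CPM in Ctrl. Neither comparison overlapped, and ELL2 fell by 0.48 ± 0.07 (adjusted p = 3.43e-05) with Dox and by 0.31 ± 0.07 (adjusted p = 0.00292) without it. ELL, its less abundant paralogue, had 15.6, 14.0 and 15.6 CPM in OHT_Dox, against 18.5, 18.3 and 19.3 CPM in Dox. It had 12.8, 11.9 and 12.9 CPM in OHT, against 15.0, 17.7 and 15.8 CPM in Ctrl. ELL fell by 0.30 ± 0.08 (adjusted p = 0.0120) with Dox and by 0.35 ± 0.08 (adjusted p = 0.00520) without it, again with no overlap. ELL3, at 2.73 to 4.22 CPM, changed by 0.17 and 0.22 and passed neither test, and 54.1% of its exon bases lie within another annotated gene on the same strand, so its level is uncertain. The ELL call with Dox was lost without OHT_Dox replicate 2 (-0.25, adjusted p = 0.0533).

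**Figure D3:**
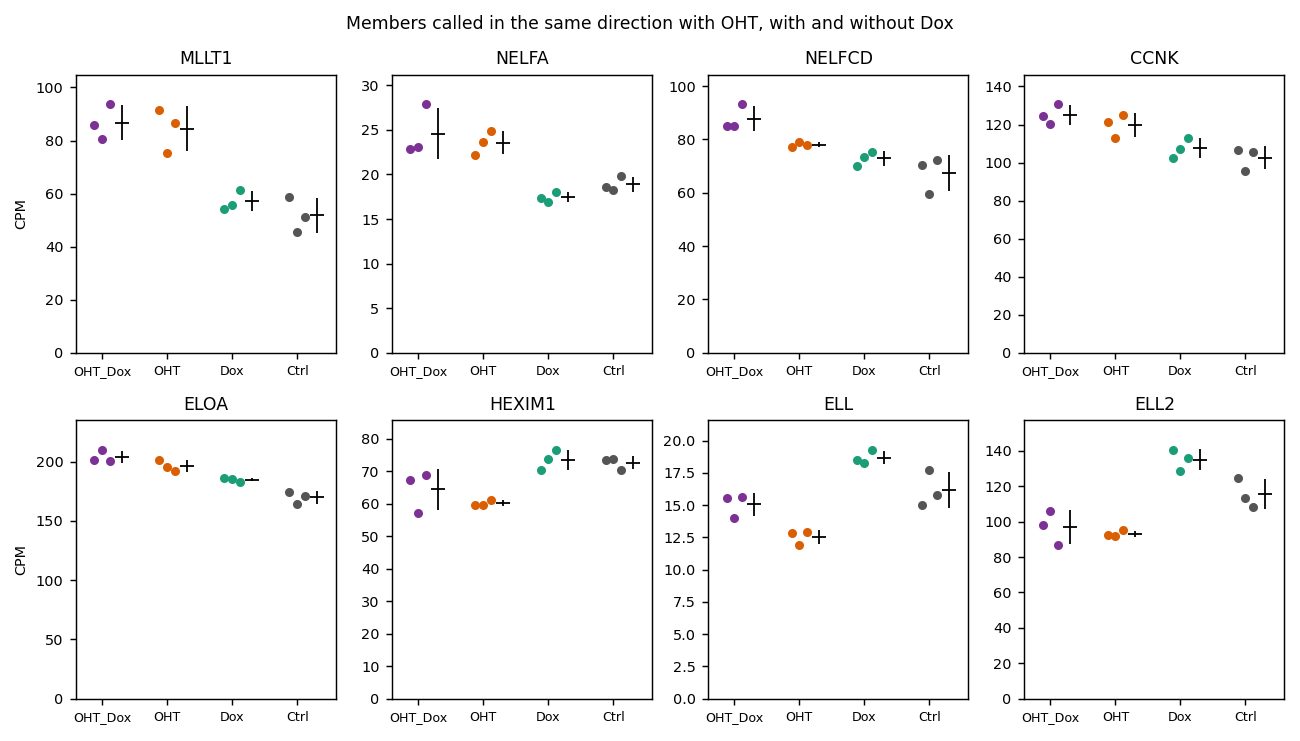
CPM in each library for the 8 members called in the same direction with OHT in the presence and in the absence of Dox, by group, with the mean and SD (n = 3) as a cross to the right of the points and axes from 0. MLLT1, NELFA, NELFCD, CCNK and ELOA lie higher in OHT_Dox and OHT than in Dox and Ctrl, and HEXIM1, ELL and ELL2 lie lower.

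The scaffold genes AFF1 and AFF4 and the ELL-associated gene EAF1 were called lower in OHT_Dox than in Dox and were not called in OHT against Ctrl. AFF4 had 92.8, 95.1 and 77.6 CPM in OHT_Dox, against 127, 126 and 117 CPM in Dox. It had 104, 84.7 and 92.9 CPM in OHT, against 112, 88.2 and 77.2 CPM in Ctrl. The Dox libraries stood above those of the other 3 groups, and AFF4 fell by 0.48 ± 0.10 (adjusted p = 0.00204) with Dox and changed by 0.03 (adjusted p = 0.865) without it. AFF1 had 31.8, 33.6 and 28.5 CPM in OHT_Dox, against 37.9, 42.5 and 39.4 CPM in Dox. It had 32.7, 24.4 and 25.2 CPM in OHT, against 32.5, 27.2 and 27.0 CPM in Ctrl. It too was highest in Dox, with a fall of 0.35 ± 0.10 (adjusted p = 0.0145) with Dox and a change of -0.08 (adjusted p = 0.633) without it. EAF1 had 43.4, 45.7 and 43.8 CPM in OHT_Dox, against 51.1, 56.0 and 51.5 CPM in Dox. In OHT it had 48.1, 42.5 and 45.7 CPM, against 46.3, 42.02 and 43.9 CPM in Ctrl. The Dox libraries were again the highest, and EAF1 fell by 0.25 ± 0.07 (adjusted p = 0.00731) with Dox and changed by 0.04 (adjusted p = 0.703) without it. The difference between the OHT changes with and without Dox was tested and passed the threshold for none of them, at -0.51 ± 0.15 for AFF4, -0.29 ± 0.09 for EAF1 and -0.27 ± 0.14 for AFF1 (adjusted p = 0.221, 0.221 and 0.374). The AFF1 call was lost without OHT_Dox replicate 3 (-0.28, adjusted p = 0.0793) or Dox replicate 2 (-0.30, 0.0740), and the EAF1 call without Dox replicate 2 (-0.21, 0.0555). EAF1-AS1, which shares 29.1% of the exon bases of EAF1 on the opposite strand, had 0.796 to 0.840 times its CPM, so reads of both genes cannot be fully told apart.

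Among the kinases that act later along the gene, cyclin K was called with OHT and its partners were not. CCNK had 125, 120.1 and 131 CPM in OHT_Dox, against 103, 107 and 113 CPM in Dox. It had 121, 113 and 125 CPM in OHT, against 107, 95.5 and 105 CPM in Ctrl. The groups did not overlap, and CCNK rose by 0.22 ± 0.06 in both comparisons (adjusted p = 0.0118 with Dox and 0.0121 without it). CDK12 had 67.1, 69.5 and 62.0 CPM in OHT_Dox, against 66.1, 65.8 and 54.5 CPM in Dox. In OHT it had 68.7, 57.5 and 62.2 CPM, against 60.8, 51.5 and 47.8 CPM in Ctrl. CDK13 had 50.1, 52.1 and 48.7 CPM in OHT_Dox, against 46.8, 46.3 and 47.9 CPM in Dox. In OHT it had 54.1, 45.9 and 48.3 CPM, against 47.0, 40.8 and 41.1 CPM in Ctrl. The libraries of each kinase overlapped without Dox, and neither passed the test, at 0.10 for each with Dox (adjusted p = 0.483 for CDK12 and 0.353 for CDK13) and at 0.24 and 0.20 without it (0.0709 and 0.0505), although CDK13 was called without Dox with TMM, edgeR and DESeq2 (0.20, adjusted p = 0.0265 to 0.0411). After removal of GC and length trends both were called higher with Dox, CDK12 at 0.19 (adjusted p = 0.0425) and CDK13 at 0.18 (adjusted p = 0.00937). Without Dox, leaving out OHT replicate 2 or Ctrl replicate 1 also gave a call for CDK12 (0.30 and 0.33, adjusted p = 0.0379 and 0.00980) and for CDK13 (0.25 and 0.27, 0.0270 and 0.0112), and CDK13 was called without OHT_Dox replicate 3 (0.20, 0.0480). CCDC85C covers 59.5% of the exon bases of CCNK on the opposite strand and rose as well, to 66.2 ± 4.3 CPM in OHT_Dox, against 40.3 ± 3.6 CPM in Dox, and to 67.5 ± 2.4 CPM in OHT, against 41.9 ± 3.0 CPM in Ctrl (SD, n = 3 each). That rise of 25.9 and 25.6 CPM is larger than the 17.5 and 17.2 CPM by which CCNK rose, and since the strand setting of the counting is not given, the rises of both genes cannot be told apart. The CCNK call was lost without OHT_Dox replicate 3 (0.19, adjusted p = 0.0555) or Dox replicate 1 (0.18, 0.0645) with Dox, and without OHT replicate 3 (0.19, 0.0700) or Ctrl replicate 2 (0.17, 0.0677) without it.

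Of the 5 genes of the PAF1 complex and its associate RTF1, 1 was called lower in each OHT comparison, CDC73 with Dox and PAF1 without it. That is 20.0% in each, where 26.0% of all genes tested were called with Dox and 21.4% without it. PAF1, which names the complex, had 65.1, 66.9 and 67.6 CPM in OHT, against 78.2, 84.7 and 72.2 CPM in Ctrl, a fall of 0.23 ± 0.06 (adjusted p = 0.0127), and it had 67.5, 64.1 and 71.3 CPM in OHT_Dox, against 75.3, 70.8 and 74.8 CPM in Dox (-0.12, adjusted p = 0.170). CDC73, the parafibromin subunit, had 64.3, 74.1 and 60.8 CPM in OHT_Dox, against 86.5, 82.1 and 78.8 CPM in Dox, a fall of 0.31 ± 0.07 (adjusted p = 0.00397). In OHT it had 71.8, 69.3 and 71.1 CPM, against 83.6, 73.5 and 69.3 CPM in Ctrl, where the libraries overlapped (-0.09, adjusted p = 0.447). RTF1 had 94.9, 93.1 and 87.5 CPM in OHT_Dox, against 99.8, 101 and 102 CPM in Dox, and did not pass the test (-0.14, adjusted p = 0.0721). The subunits CTR9 and LEO1 were not called with OHT, at -0.12 and -0.13 with Dox and 0.01 and -0.08 without it. The PAF1 call was lost without OHT replicate 1 (-0.22, adjusted p = 0.0501) or Ctrl replicate 2 (-0.17, 0.0750). After removal of GC and length trends, CDC73 was at -0.16 (adjusted p = 0.0359) and PAF1 was also called lower with Dox (-0.18, 0.0359), and RTF1 was called lower without Dox (-0.15, 0.0277).

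SUPT6H, which encodes the histone chaperone SPT6, had 83.8, 80.4 and 80.8 CPM in OHT_Dox, against 94.97, 95.4 and 95.7 CPM in Dox. It had 80.4, 69.5 and 71.2 CPM in OHT, against 88.8, 83.7 and 77.3 CPM in Ctrl. It fell by 0.22 ± 0.06 (adjusted p = 0.0128) with Dox, where the groups lay apart, and its change of -0.18 without Dox, where they overlapped, did not pass (adjusted p = 0.0542). It was called there after removal of GC and length trends (-0.25, adjusted p = 0.00101), with TMM, edgeR and DESeq2 (-0.18, 0.0233 to 0.0469) and without OHT replicate 1 (-0.24, 0.0150) or Ctrl replicate 3 (-0.23, 0.0252). IWS1, which binds SPT6, changed by -0.02 and 0.08, and the FACT subunits SUPT16H and SSRP1, at 326 to 377 and 299.9 to 385 CPM, passed neither test, with changes between -0.13 and 0.10, except that SSRP1 was called lower in OHT against Ctrl after removal of GC and length trends (-0.20, adjusted p = 0.0403).

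GTF2F1, the large subunit of TFIIF, had 112, 123 and 125 CPM in OHT, against 139, 145 and 153 CPM in Ctrl, and fell by 0.28 ± 0.06 (adjusted p = 0.00118). In OHT_Dox it had 128, 121 and 124 CPM, against 136, 136 and 139.5 CPM in Dox, and did not pass the test (-0.15, adjusted p = 0.0625), although no libraries overlapped. It was called there after removal of GC and length trends (-0.21, adjusted p = 0.00653) and without OHT replicate 1 or Ctrl replicate 1 (-0.15, 0.0480 and 0.0494). GTF2F2, the small subunit, had 27.9, 29.9 and 27.7 CPM in OHT_Dox, against 34.2, 32.8 and 31.6 CPM in Dox, a fall of 0.20 ± 0.07 (adjusted p = 0.0393), and its change in OHT against Ctrl was -0.15 (adjusted p = 0.149). ELOA, the transcriptionally active subunit of elongin, rose by 0.14 ± 0.05 (adjusted p = 0.0345) to 201, 209.7 and 200.5 CPM in OHT_Dox, against 186, 185 and 183 CPM in Dox. It rose by 0.21 ± 0.05 (adjusted p = 0.00366) to 202, 195 and 192 CPM in OHT, against 174, 164 and 171 CPM in Ctrl. The subunits it shares with ubiquitin ligases moved otherwise in OHT against Ctrl, at -0.18 for ELOB (75.6, 85.2 and 83.4 CPM in OHT, against 81.8, 103 and 92.7 CPM in Ctrl) and -0.13 for ELOC, and neither was called (adjusted p = 0.0988 and 0.149) except without Ctrl replicate 1 (-0.26, 0.0114 and -0.19, 0.0247). In OHT_Dox against Dox both were above 0, as ELOA was, at 0.15 for ELOB and 0.08 for ELOC. Neither was called there (adjusted p = 0.162 and 0.404). GTF2F2 was lost without OHT_Dox replicate 1 or 3 or Dox replicate 1 or 2 (-0.17 to -0.20, adjusted p = 0.0974 to 0.139), with TMM, edgeR and DESeq2 (-0.17 to -0.18, 0.0887 to 0.111) and after removal of GC and length trends (-0.09, 0.293). The ELOA call with Dox was lost without OHT_Dox replicate 1 or 2 or Dox replicate 1, 2 or 3 (0.12 to 0.15, adjusted p = 0.0724 to 0.103).

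The 5 genes for ending transcription did not pass the test in either OHT comparison, except that INTS1 was called lower in OHT against Ctrl after removal of GC and length trends (-0.16, adjusted p = 0.0222). XRN2, the exonuclease that degrades the RNA left on the polymerase, ranged from 144 to 168 CPM, with changes of -0.08 in OHT_Dox against Dox and 0.06 in OHT against Ctrl. PCF11, which links the polymerase tail to 3′ end cleavage, ranged from 36.9 to 46.4 CPM, with changes of -0.17 and -0.02. The Integrator subunits INTS1, INTS6 and INTS11, the last being the endonuclease, changed by -0.05, -0.19 and 0.17 with Dox and by -0.07, 0.14 and 0.08 without it.

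Dox, with which TCEAL1 was lower, was accompanied by higher levels of 4 of the 8 super elongation complex genes (AFF1, AFF4, ELL2 and EAF1), of CCNT2 and CTR9, and by a lower level of ELOB. Of these, AFF1 and AFF4 stayed called after removal of GC and length trends. In Dox against Ctrl, 6 members were higher and 1 lower, or 16.7%, where 8.29% of all genes tested were called (5.68% higher and 2.61% lower), and the median change was 0.10 for the members and 0.05 for all genes. The scaffold AFF1 rose by 0.46 ± 0.10 (adjusted p = 0.0128) and AFF4 by 0.43 ± 0.10 (adjusted p = 0.0208), from the library values given above, and no AFF1 or AFF4 library of Dox fell within the range of Ctrl. CCNT2, the less abundant T cyclin, had 32.9, 38.9 and 34.4 CPM in Dox, against 29.8, 27.1 and 24.7 CPM in Ctrl, a rise of 0.37 ± 0.09 (adjusted p = 0.0202). EAF1 rose by 0.26 ± 0.07 (adjusted p = 0.0231) and ELL2 by 0.23 ± 0.07 (adjusted p = 0.0482). CTR9, the scaffold subunit of the PAF1 complex, had 120.4, 119 and 115 CPM in Dox, against 102, 106 and 94.7 CPM in Ctrl, a rise of 0.23 ± 0.06 (adjusted p = 0.0320). ELOB, elongin B, had 77.3, 71.9 and 78.9 CPM in Dox, against 81.8, 103 and 92.7 CPM in Ctrl, a fall of 0.28 ± 0.07 (adjusted p = 0.0312). None of these 7 overlapped between the groups, and counting them 12 members were higher and 3 lower without overlap, where 19.1% and 9.77% of all genes were so separated.

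All 8 members of the super elongation complex had a change above 0 in Dox against Ctrl, at 0.12 to 0.46, and 4 passed the test. Of the 18674 genes tested, 11402 were above 0 and 8.29% were called in either direction. The median change of all genes was 0.05 in this comparison and 0.00324 with TMM rescaling. CCNT1 (0.26, adjusted p = 0.0513), SUPT6H (0.20, 0.0576) and INTS6 (0.26, 0.0664) came close without passing, and each was called without Ctrl replicate 1 (0.33, 0.24 and 0.34, adjusted p = 0.0107, 0.0164 and 0.0160). Over all genes, 2274 were higher and 906 lower without that library, where 1061 and 487 were called with it. CCNT1 had 73.2, 78.4 and 76.7 CPM in Dox, against 70.0, 65.5 and 56.1 CPM in Ctrl. INTS6 had 28.7, 29.3 and 29.6 CPM in Dox, against 27.0, 23.5 and 22.5 CPM in Ctrl, so neither gene overlapped between the groups. The 7SK genes HEXIM1, LARP7 and MEPCE, which fell in OHT against Ctrl, changed by 0.02, -0.09 and -0.03 here, and the NELF genes by -0.14 to 0.12, with none called.

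**Figure D4:**
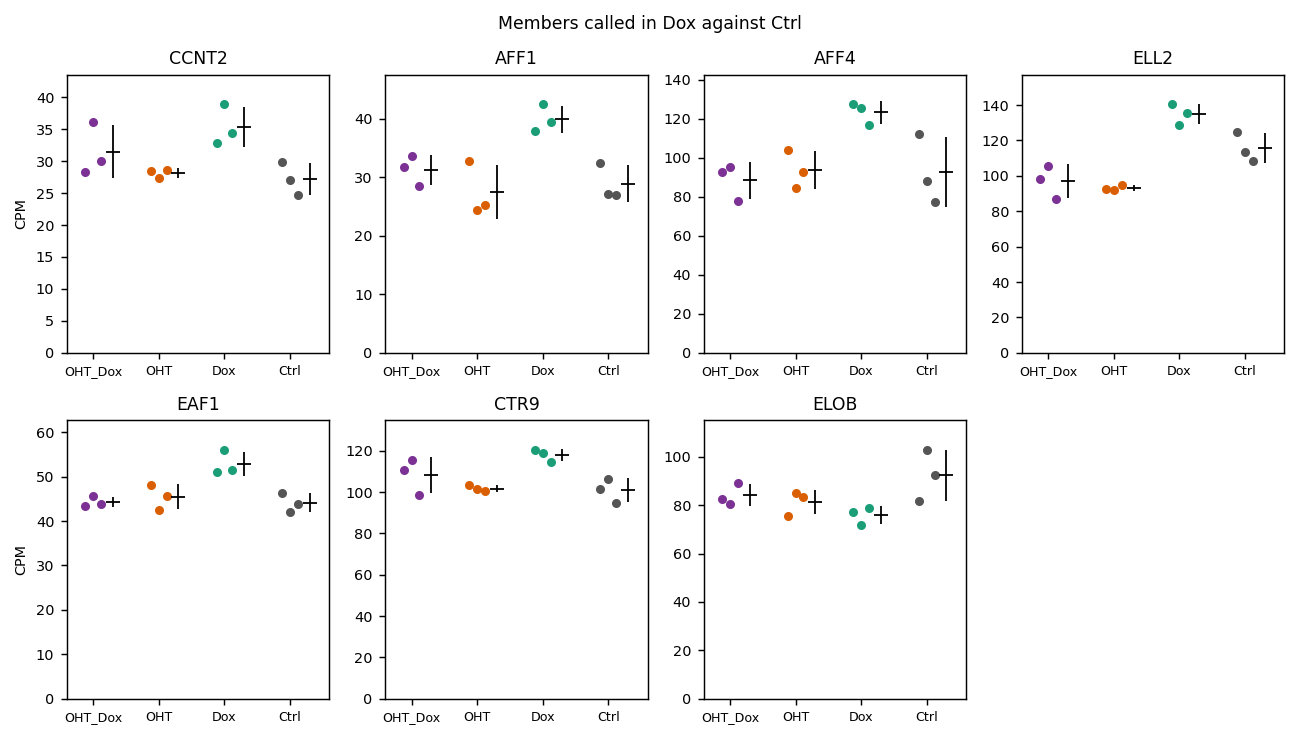
CPM in each library for the 7 members called in Dox against Ctrl, by group, with the mean and SD (n = 3) as a cross to the right of the points and axes from 0. The Dox libraries of CCNT2, AFF1, AFF4, ELL2, EAF1 and CTR9 lie above those of Ctrl, and those of ELOB lie below.

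These calls depended on single libraries and on the scaling. All 7 were lost without Dox replicate 2 and without Ctrl replicate 3 (0 called in each case), 1 remained called, CTR9, without Ctrl replicate 2, and 3 were called higher without Dox replicate 1 or 3. Without Ctrl replicate 1, 10 members were called higher and 1 lower. The counts over all genes moved with the same libraries. They were 85 higher and 112 lower without Dox replicate 2, and 109 and 122 without Ctrl replicate 3. Leaving out Ctrl replicate 2 gave 152 and 199, Dox replicate 1 gave 597 and 264, and Dox replicate 3 gave 392 and 217. Leaving out Ctrl replicate 1 gave 2274 and 906. TMM rescaling gave 3 higher and 1 lower members and DESeq2 4 and 2, while over all genes TMM gave 519 higher and 771 lower and DESeq2 923 and 1171, where 1061 were higher and 487 lower without rescaling. The members that were higher in Dox have long messages with little G and C, with 4586 to 9552 bases and 37.0% to 45.2% GC in the longest GENCODE 29 transcript, against medians of 3590.5 bases and 49.2% for the other 36 members. Across the 42 members the change in Dox against Ctrl followed transcript length (Spearman correlation 0.733) and GC content (-0.543), and across all 18673 genes with a transcript it followed them less closely (0.261 and -0.307). The genes are not independent replicates and share the same 6 libraries. After removal of GC and length trends 2 members were called higher and 0 lower, AFF1 at 0.31 (adjusted p = 0.0113) and AFF4 at 0.25 (adjusted p = 0.0323), while CCNT2 was at 0.21, EAF1 at 0.16, CTR9 at 0.12, ELL2 at 0.08 and ELOB at -0.22 (adjusted p = 0.0919, 0.0824, 0.180, 0.388 and 0.0664). The part of transcript length and GC content in the remaining differences was not tested. The correlations with length and GC were 0.354 and -0.131 in OHT against Ctrl and -0.298 and 0.471 in OHT_Dox against Dox, over the same 42 members.

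**Figure D5:**
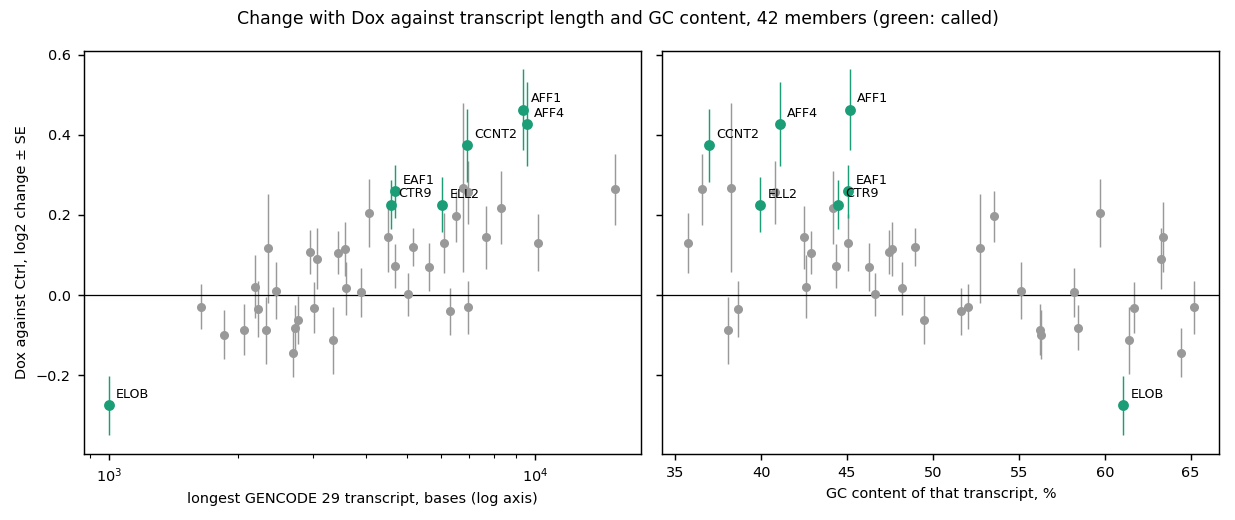
Log2 change in Dox against Ctrl of the 42 members, with bars of 1 SE, against the length of the longest GENCODE 29 transcript (left, log axis, bases) and its GC content (right, percent). The green points are the 7 called members, of which AFF1 and AFF4 have transcripts among the longest and ELOB, the lower one, has the shortest of the 42.

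In the presence of OHT no member was called for Dox. In OHT_Dox against OHT, limma, edgeR's quasi-likelihood test and DESeq2 each called 0 of the 42 members, with 5 at an unadjusted p below 0.05 (11.9%, against 13.1% of all genes). limma called 2.10% of all genes, 0.509% higher and 1.59% lower. All 3 OHT_Dox libraries lay above all 3 OHT libraries for 5 members and below them for 0, where 10.4% and 8.33% of all genes were so separated. The changes ran from -0.10 to 0.25, the largest being that of ELL (0.25 ± 0.08, adjusted p = 0.155), with 15.6, 14.0 and 15.6 CPM in OHT_Dox, against 12.8, 11.9 and 12.9 CPM in OHT. For the genes that were higher in Dox than in Ctrl, the changes in OHT_Dox against OHT were 0.19 for AFF1, -0.08 for AFF4, 0.15 for CCNT2, -0.03 for EAF1, 0.05 for ELL2 and 0.09 for CTR9. The comparisons OHT_Dox against Dox and Dox against Ctrl share the 3 Dox libraries, so a high value of AFF1, AFF4, ELL2 or EAF1 in those libraries enters both, as a fall in the one and a rise in the other.

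Whether the change with OHT differed between cells with and without Dox was tested directly. limma, edgeR's quasi-likelihood test and DESeq2 each called 0 of the 42 members, and limma called 0% of all genes (0 of 18674), with 7 members at an unadjusted p below 0.05 (16.7%, against 15.4% of all genes). DESeq2 called 1 of all genes. The largest differences among members were -0.51 ± 0.15 for AFF4, -0.36 ± 0.11 for CCNT1 and 0.33 ± 0.11 for ELOB (adjusted p = 0.221 for each). Without Ctrl replicate 1, AFF4 (-0.66, adjusted p = 0.0252), CCNT1 (-0.43, 0.0317) and EAF1 (-0.33, 0.0477) were called lower and ELOB (0.41, 0.0267) higher. Over all 18674 genes, leaving out that library gave 272 higher and 769 lower, where 0 were called with it. Among members called in both OHT comparisons, the interaction was -0.11 ± 0.12 for MLLT1, 0.17 ± 0.12 for NELFA, 0.05 ± 0.12 for ELL and 0.08 ± 0.09 for HEXIM1.

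Another 79 genes of related processes, all tested, were set beside the members. They are the remaining Integrator subunits listed with the associated genes INIP, NABP1 and NABP2, cleavage and polyadenylation factors, capping factors, kinases and phosphatases of the polymerase tail, and other elongation factors. In OHT_Dox against Dox 7 were higher and 17 lower (30.4%, against 26.0% of all genes), in OHT against Ctrl 12 were higher and 7 lower (24.1%, against 21.4%), and in Dox against Ctrl 7 were higher and 1 lower (10.1%, against 8.29%). None was called in OHT_Dox against OHT or in the interaction by limma, with 6 and 16 at an unadjusted p below 0.05. CTDP1, a phosphatase of the polymerase tail, averaged 55.1 ± 7.0 CPM in OHT_Dox, against 37.0 ± 1.8 CPM in Dox, and 55.5 ± 2.2 CPM in OHT, against 41.6 ± 1.7 CPM in Ctrl (SD, n = 3 each). It rose by 0.56 ± 0.08 (adjusted p = 2.14e-05) and 0.41 ± 0.08 (adjusted p = 0.000612). The phosphatase CTDSP2 fell by 0.45 ± 0.06 (adjusted p = 1.74e-05) with Dox and by 0.22 ± 0.06 (adjusted p = 0.0129) without it. The cap methyltransferase RNMT rose by 0.39 ± 0.07 (adjusted p = 0.000429) in OHT against Ctrl. Of the Integrator and associated genes outside the 42, 8 of 15 were called in OHT_Dox against Dox (2 higher and 6 lower), with INTS15 at 0.42 and INTS10 at 0.19 and INIP at -0.33, and 3 of 15 in OHT against Ctrl, with INTS10 at 0.31, INTS15 at 0.31 and INIP at -0.31. Of the 21 cleavage and polyadenylation genes, 5 were called in OHT_Dox against Dox (1 higher and 4 lower) and 2 in OHT against Ctrl (1 higher and 1 lower), where CLP1 was at -0.27. WAC, an adaptor of histone ubiquitination, fell by 0.29 in OHT_Dox against Dox. In Dox against Ctrl, NABP1 (0.30), RPRD1A (0.25) and the histone methyltransferase SETD2 (0.33) were higher and NABP2 (-0.23) was lower.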

How the data were processed

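Poly(A) RNA of 12 SHEP libraries in 4 groups of 3 was sequenced from directional libraries, per the labels' protocols. The authors deposited CPM for each Ensembl gene, that is reads scaled to a total of 1000000 in each library. Per the submitters' processing notes, the assays of the series together used featureCounts, STAR, Bowtie, Bowtie2, DRAGEN and FastQC, with hg19 and mm10 as builds. Which tool made the table, the annotation and the strand setting of the counting are not given in the sources used here, so overlapping and antisense genes are uncertain. CPM values were whole multiples of 1 read in 100% of cases (tolerance 0.01 reads), which gave the depth of each library and the reads for the count tests.

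Genes with at least 0.5 CPM in at least 3 libraries were tested. log2(CPM + 0.5) was fitted with limma 3.58.1 (R 4.3.3) with 1 mean per group and moderated variances that follow a mean trend (empirical Bayes). Tests were two-sided, with Benjamini-Hochberg adjustment over the genes tested, and the pseudocount draws changes of low genes towards 0. Exon lengths and GC content came from GENCODE 29, which held 28572 of the genes, and promoters from RefSeq. 6873 genes have no symbol. The alternatives were a pseudocount of 1, no filter, TMM, edgeR 4.0.16, DESeq2 1.42.0, a replicate block, removal of GC and length trends (splines with 5 degrees of freedom), and leaving out libraries. The fit was also run on simulated counts without GC, length or replicate effects, so that run does not bear on such effects.

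The members, the other gene lists and the rule for named genes were chosen with earlier results of these data known. Every member called in a comparison, or with an adjusted p of up to 0.10, is named with its library values, and of the other lists at most 3 genes per direction with the smallest p.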

Additional observations from a re-analysis of the deposited data

How the results depend on the processing

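Over 4410 recomputed changes of single genes (the 42 members in 5 comparisons and 21 alternatives), 4239 kept their side of the threshold, 108 lost a call and 63 gained one. Of the changes called in the main fit or in the alternative, 0 reversed direction. Changes called in neither could change sign and are counted among the 4239. CCNT2 in OHT against Ctrl, for example, went from 0.05 to -0.003 after removal of GC and length trends. Of the 35 calls among members, 11 held under every alternative tried and 14 when any library was left out. Leaving out each library in turn gave 3 to 5 members higher and 5 to 11 lower in OHT_Dox against Dox, 2 to 7 and 5 to 10 in OHT against Ctrl, 0 to 10 and 0 to 1 in Dox against Ctrl, 0 and 0 in OHT_Dox against OHT, and 0 to 1 and 0 to 3 in the interaction. Over all genes it gave 85 to 2274 higher and 112 to 906 lower in Dox against Ctrl, and 0 to 272 and 0 to 769 in the interaction. Without Dox replicate 1 and OHT_Dox replicate 3 together, 2 members were higher and 5 lower in OHT_Dox against Dox. In Dox against Ctrl, where 6 members were higher and 1 lower, those called higher numbered 3 with TMM and with edgeR and 2 after removal of GC and length trends, with or without the block. Members called lower there numbered 2 with DESeq2, 0 after removal of GC and length trends without the block and 1 with it. Over all genes, 1061 higher and 487 lower became 1767 and 758 with the block, 674 and 318 with no filter and 377 and 745 after removal of GC and length trends, and in OHT_Dox against Dox 2153 and 2709 became 1404 and 1576 without the 2 libraries named. The cause of these shifts was not tested. The main fit did not pair libraries by replicate number. Between libraries of the same number, deviations from the group means correlated at 0.33, 0.20 and 0.045 for OHT and Ctrl. The correlations were 0.033, 0.12 and 0.16 for OHT_Dox and Dox, and -0.0060, 0.073 and 0.13 for Dox and Ctrl. For OHT_Dox and OHT they were 0.064, 0.036 and 0.084. What libraries of the same number share was not tested. A fit with the replicate number as a block called 10 members higher and 1 lower in Dox against Ctrl. It also called CDK12, CDK13 and SUPT6H in OHT against Ctrl (adjusted p = 0.0166, 0.0291 and 0.0252) and MEPCE, GTF2F1 and INTS11 in OHT_Dox against Dox (0.0323, 0.0409 and 0.0460). MLLT3 rests on the fewest reads of the members and its changes have the largest SE, 0.21 on the log2 scale, so smaller changes of it are not detectable here.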

Other observations

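Several members overlap annotated neighbours. ELOA-AS1, on the opposite strand from ELOA, had 0.167 to 0.191 times its CPM and was called higher in OHT against Ctrl. The antisense gene TSPOAP1-AS1 changed by -0.18 in OHT against Ctrl, as SUPT4H1 did. GENCODE 29 lists 32 pseudogenes of ELOC, of which 3 are in the table at 1.32 CPM or less, and 1 of SUPT16H at 4.56 CPM. The mean CPM of MYC was 6.59 ± 0.70 for OHT_Dox, 11.0 ± 1.1 for OHT, 21.9 ± 2.0 for Dox and 30.0 ± 0.1 for Ctrl (SD, n = 3 each), and it was lower in OHT_Dox than in Dox (-1.66 ± 0.10, adjusted p = 6.61e-10) and in OHT than in Ctrl (-1.41 ± 0.10, adjusted p = 3.96e-09).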
